A study of Mus musculus with 30 samples.

Results

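The mitotic genes are 40 named mouse genes that encode parts of the machinery that divides chromosomes: 6 cyclins and mitotic kinases, 5 genes of the spindle assembly checkpoint, 7 of the kinetochore and centromere, 4 of the chromosomal passenger complex, 12 motor, spindle and cytokinesis genes and 6 genes of condensin and chromosome structure. The rule names them by function and uses no measured value, but they were chosen with earlier results of these data known. All 40 were found among the 55471 genes of the count table and among the 15505 that passed the filter on low counts. The tumours grew under the skin of female C57BL/6 mice aged 6 to 8 weeks at inoculation with MC38, a mouse colon carcinoma line. The cells were wild type (WT) or carried loss-of-function mutations in B2m, the light chain of MHC class I (B2mKO), or in Jak1, a kinase that transmits interferon signals (Jak1KO). Treatment was with a PD-1 blocking antibody (aPD1) or its IgG1 isotype control, 100 µg into a vein on days 7, 10 and 13. PD-1 is an inhibitory receptor of T cells. About 50 mg of tumour was taken on day 14. The 6 groups of 5 libraries are WT, B2mKO and Jak1KO tumours, each with IgG1 and with aPD1. The labels do not say whether each mutant line is 1 clone, nor whether each library came from a separate mouse. The p-values therefore cover only library-to-library spread, part of which may be technical.

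During mitosis, CDK1 with its cyclins drives entry, condensin and topoisomerase II compact and untangle the chromosomes, and kinetochores built on the centromere attach them to the spindle. The spindle assembly checkpoint delays anaphase until every kinetochore is attached, and Aurora B with its partners in the chromosomal passenger complex corrects wrong attachments and later guides cytokinesis. Most of these genes are transcribed late in the cell cycle, so their RNA in a tissue reflects in part how many cells are near division, and in a bulk tumour sample fewer cells of a type and less RNA per cell cannot be told apart.

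Libraries held 17629795 to 25944701 counts. The checked genes went with the labels: B2m averaged 617 ± 112 CPM (the gene's count relative to the scaled library size, mean ± SD, n = 5) in B2mKO tumours with IgG1 against 3090 ± 911 in WT, and Jak1 averaged 71.5 ± 4.98 in Jak1KO tumours with IgG1 against 232 ± 28.7. Of 9 epithelial markers, which a colon carcinoma could express, Cdx2 was at 0 in all 30 libraries, Epcam, Krt8, Krt18, Krt20 and Vil1 averaged at most 1.07 CPM in every group, and Krt19 and Cdh17 at most 1.65 and 1.38 CPM. Cdh1, which encodes E-cadherin, was detected in every library, with group means of 2.85 to 11.9 CPM.

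The libraries WT IgG1 replicate 3 and B2mKO aPD1 replicate 2 stood apart. Mki67, the nuclear antigen Ki-67 that coats mitotic chromosomes, had 320.3, 484, 72.5, 442 and 397 CPM in the 5 WT IgG1 libraries and 409, 63.2, 449, 289 and 403 CPM in the 5 B2mKO aPD1 libraries, in replicate order. The same pair of libraries was the lowest of its group for Mki67 by a wide margin. Cenpf, Cenpe and Aspm, which code for very large kinetochore and spindle proteins, were also low there, with log2 deviations from the mean of the other 4 libraries of -1.75, -1.89 and -1.44 in WT IgG1 replicate 3. In B2mKO aPD1 replicate 2 their deviations were -1.88, -1.77 and -1.64. Over the 10 members with the longest exon length in the count table (7461 to 15433 bases), the median deviation was -0.37 in WT IgG1 replicate 3 and -0.39 in B2mKO aPD1 replicate 2. Over the 10 shortest (1531 to 4083 bases) it was 0.32 and 0.45. The difference between long and short members was -0.69 and -0.84 in this pair of libraries, and between -0.22 and 0.29 in the other 28. Members of both sets went the other way in both libraries, namely the long Mad2l1 at 0.80 and 0.78 and the short Plk1 at -0.91 and -0.44. In WT IgG1 replicate 3 the long Top2a (0.12) and Prc1 (0.14) and the short Cdc20 (-0.06) did so too. The summed level of mitochondrially encoded genes was the lowest of its group in both, at 8593 CPM in WT IgG1 replicate 3 (12350 to 18210 in the other 4) and 10310 CPM in B2mKO aPD1 replicate 2 (16930 to 19700). The part of RNA quality in these deviations was not tested. Calls that were lost or gained without both libraries are named with each comparison. Shares of all genes called are those of the fit of all libraries, and are not given for fits that left out libraries or groups.

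**Figure D1:**
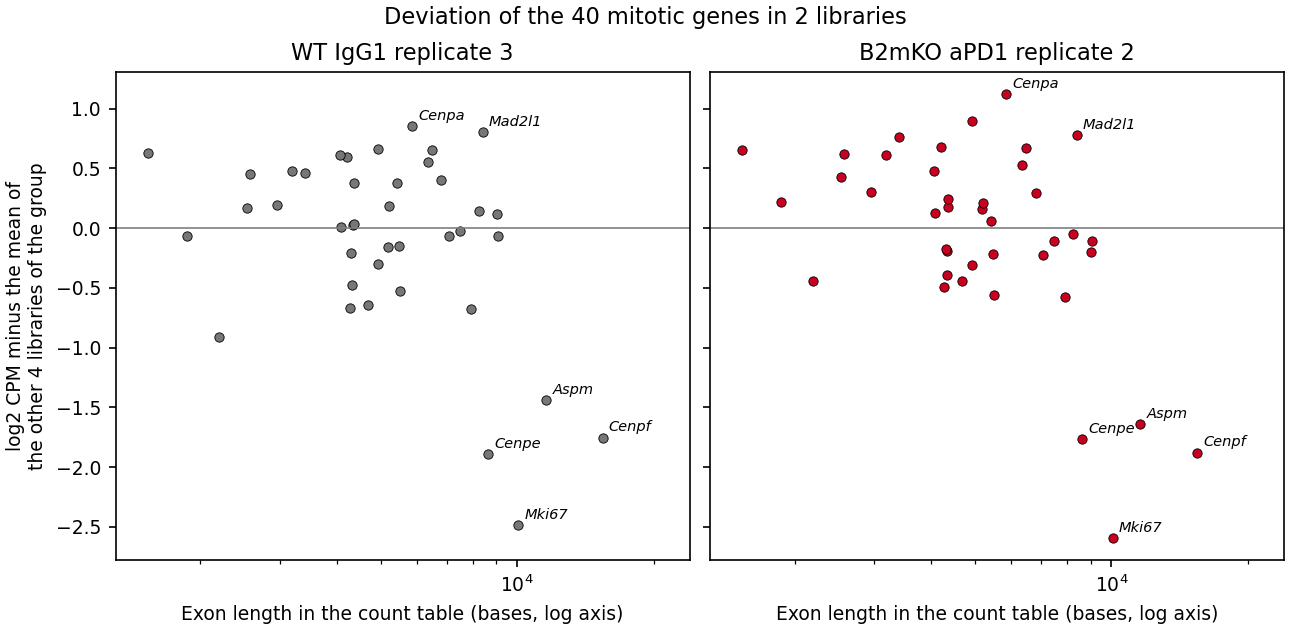
Each point is 1 of the 40 mitotic genes; the x axis is its exon length in bases on a log axis and the y axis is its log2 CPM in the named library minus the mean of the other 4 libraries of the same group. Mki67, Cenpf, Cenpe and Aspm lie between -1.44 and -2.60 in both libraries, while Cenpa and Mad2l1 lie above 0.

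Per length of exon, the members differed widely in level. Top2a, which encodes topoisomerase II alpha, was highest at 90.5 FPKM (CPM per kilobase of exon, mean of 30 libraries), followed by Smc4, a condensin core subunit, at 66.5 and Cdc20, the activator of the anaphase-promoting complex, at 56.3. Ndc80, the kinetochore's microtubule coupler, was lowest at 5.91 FPKM. No member was rare: the smallest count in any library was 250, for Spc24. Added together, the 40 genes made up 5402 to 6248 CPM in WT IgG1, 5094 to 6232 in WT aPD1, 4061 to 5341 in B2mKO IgG1, 3834 to 5131 in B2mKO aPD1, 5712 to 6525 in Jak1KO IgG1 and 5815 to 6092 in Jak1KO aPD1. Every B2mKO IgG1 library was thus below every WT IgG1 library, while B2mKO aPD1 and WT aPD1 libraries overlapped narrowly. By group mean, 37 of the 40 genes were lowest in a B2mKO group, and 25 were highest in a Jak1KO group, 15 in a WT group and none in a B2mKO group. This order was counted for the 40 genes only, so it cannot be set against all genes.

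**Figure D2:**
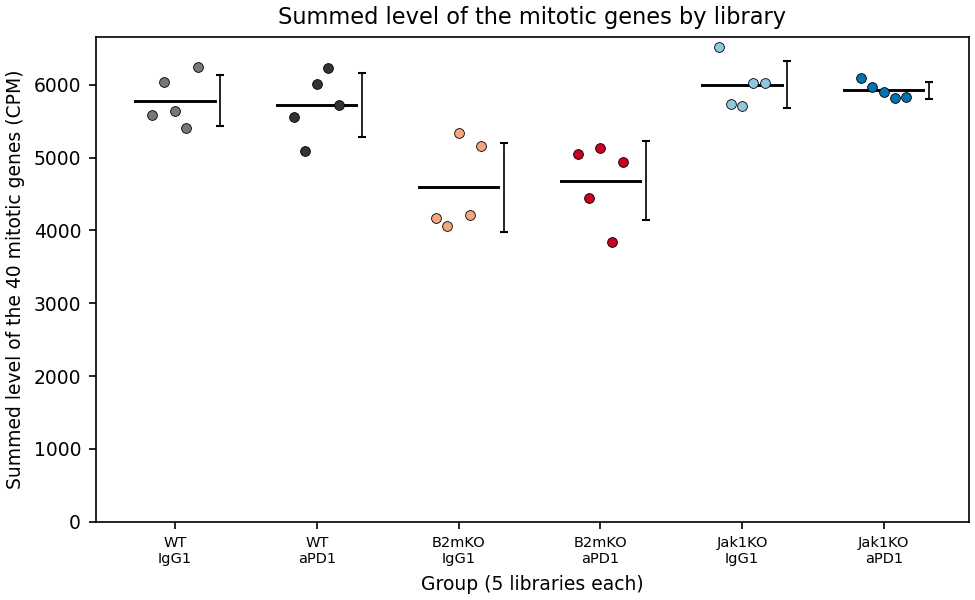
Points are libraries, and the y axis is the summed level of the 40 mitotic genes in CPM, with the group mean as a bar and ± 1 SD beside it. The B2mKO groups lie lowest (3834 to 5341 CPM) and the 10 Jak1KO libraries lie between 5712 and 6525 CPM.

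In B2mKO tumours with IgG1, 23 of the 40 mitotic genes fell against WT tumours with IgG1 and none rose. Of all 15505 genes tested, 11.7% were called lower (edgeR's quasi-likelihood test, Benjamini-Hochberg adjusted p under 0.05). The median log2 fold change of the 40 genes was -0.34, against 0.00 over all genes (values after ± beside a log2 fold change are standard errors), and 35 of the 40 values were negative. For 10 members, all of them lower, the 5 B2mKO values lay wholly outside the 5 WT values, as they did for 12.1% of all genes. Leaving out B2mKO IgG1 replicate 2 gave 14 calls, and a fit of the compared groups alone gave 9, all of them among the 23.

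Among the checkpoint genes, Bub1, a kinase that recruits checkpoint proteins to kinetochores (ENSMUSG00000027379, chromosome 2, 127801122 to 127831865), had the smallest p of all members. Its levels were 182, 177, 224, 152 and 179.6 CPM in WT tumours with IgG1 and 119, 101, 130.5, 112 and 109.7 CPM in B2mKO tumours with IgG1. All 5 B2mKO libraries were below all 5 WT libraries, and the log2 fold change was -0.68 ± 0.10 (adjusted p = 1.17e-05). Mad2l1, which encodes the checkpoint protein MAD2, fell by 0.46 (adjusted p = 0.0427). Bub1b, Ttk and Cdc20 did not pass, with log2 fold changes of -0.04 ± 0.12, -0.22 ± 0.12 and -0.10 ± 0.11.

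Top2a (ENSMUSG00000020914, chromosome 11, 98992943 to 99024189), the most abundant member per length, had 858, 1007, 1013, 872 and 1012 CPM in WT and 585, 568, 731, 584 and 708 CPM in B2mKO tumours with IgG1. These groups did not overlap, and Top2a fell with a log2 fold change of -0.58 ± 0.10 (adjusted p = 7.51e-05). Ncaph, a condensin I subunit (ENSMUSG00000034906, chromosome 2, 127103809 to 127133954), had 85.6, 86.9, 76.1, 83.8 and 96.1 CPM in WT and 56.1, 56.3, 75.3, 63.4 and 75.9 CPM in B2mKO. Again each B2mKO library was lower than each WT library, though by a small margin, with a log2 fold change of -0.39 ± 0.10 (adjusted p = 0.00644). In the condensin and chromosome structure genes, 4 of 6 fell, Smc4 and Ncapg being the other two, while Smc2 (-0.23 ± 0.09) and Mki67 (0.11 ± 0.35) did not pass.

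Of the 12 motor, spindle and cytokinesis genes, 6 fell. Anln encodes anillin, a scaffold of the contractile ring that pinches the cell apart (ENSMUSG00000036777, chromosome 9, 22332012 to 22389188). It had 287, 257, 262, 242 and 317 CPM in WT and 204, 184, 204, 203 and 198 CPM in B2mKO tumours with IgG1, with no overlap and a log2 fold change of -0.46 ± 0.08 (adjusted p = 0.000121). Kif11 encodes the motor that pushes spindle poles apart (ENSMUSG00000012443, chromosome 19, 37376403 to 37421859), and had 204, 213, 198, 175 and 216 CPM in WT and 129, 132, 169.7, 131 and 150.2 CPM in B2mKO. Its groups were also separate, with a log2 fold change of -0.50 ± 0.09 (adjusted p = 0.000297). Dlgap5, a microtubule-bundling protein, changed by -0.51 ± 0.10 (adjusted p = 0.000593), and Nusap1, which binds spindle microtubules near chromosomes, by -0.64 ± 0.13 (adjusted p = 0.00103). Prc1, a bundler of the central spindle, changed by -0.35 ± 0.08 (adjusted p = 0.00344) and Hmmr, a spindle-associated receptor of hyaluronan, by -0.36 ± 0.11 (adjusted p = 0.0179). The motors Kif4 (0.00 ± 0.13), Kif20a (-0.11 ± 0.11), Kif23 (-0.18 ± 0.14) and Kif2c (-0.22 ± 0.10) did not pass, nor did Tpx2 and Aspm.

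In the chromosomal passenger complex, 3 of 4 genes fell. Birc5, which encodes survivin (ENSMUSG00000017716, chromosome 11, 117849251 to 117855743), had 103, 113, 151, 102 and 125 CPM in WT and 58.4, 58.3, 86.4, 64.4 and 91.4 CPM in B2mKO tumours with IgG1. This was the member with the largest fall, -0.73 ± 0.15 (adjusted p = 0.00118), with no overlap between the groups. Aurkb, the complex's kinase (ENSMUSG00000020897, chromosome 11, 69045647 to 69051664), had 85.9, 88.02, 98.97, 76.8 and 97.4 CPM in WT and 54.01, 59.3, 72.7, 55.3 and 77.7 CPM in B2mKO. Only the highest B2mKO library passed the lowest WT library, and the log2 fold change was -0.49 ± 0.11 (adjusted p = 0.00156). Cdca8, or borealin, fell with a smaller change of -0.32 ± 0.09 (adjusted p = 0.0122), and Incenp, the scaffold, did not pass (-0.31 ± 0.12, adjusted p = 0.0605).

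Of the 6 cyclins and mitotic kinases, 4 fell. Cdk1 changed by -0.54 ± 0.16 (adjusted p = 0.0156), Ccnb1 by -0.55 ± 0.15 (adjusted p = 0.00915) and Ccnb2, which like Ccnb1 encodes a B-type cyclin partner of CDK1, by -0.52 ± 0.15 (adjusted p = 0.0118). Aurka, the kinase of spindle poles, changed by -0.37 ± 0.11 (adjusted p = 0.0196), while Plk1 (-0.20 ± 0.18) and Ccna2 (-0.27 ± 0.11) did not pass. In the kinetochore and centromere group, 4 of 7 fell: Cenpa, the histone variant that marks centromeres (-0.59 ± 0.19), Ndc80 (-0.47 ± 0.15), and its partners Spc24 (-0.46 ± 0.15) and Nuf2 (-0.40 ± 0.14). All 4 had their highest WT IgG1 value in WT IgG1 replicate 3, the library that stood apart, as had Cdk1, Ccnb1 and Ccnb2. With both libraries that stood apart left out, 23 members again passed, all lower, and 19 of them were the same genes. Mad2l1 (log2 fold change -0.26 without them), Ndc80 (-0.30), Nuf2 (-0.26) and Hmmr (-0.26) no longer passed, with adjusted p of 0.0567 to 0.11. Incenp (-0.39), Tpx2 (-0.36), Kif23 (-0.29) and Smc2 (-0.25) then passed. Among the genes kept, the falls were smaller for Cdk1 (-0.37), Ccnb1 (-0.41), Ccnb2 (-0.36), Cenpa (-0.36), Bub1 (-0.58), Birc5 (-0.61) and Nusap1 (-0.49). They were slightly larger for Ncaph (-0.42) and Cdca8 (-0.34).

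**Figure D3:**
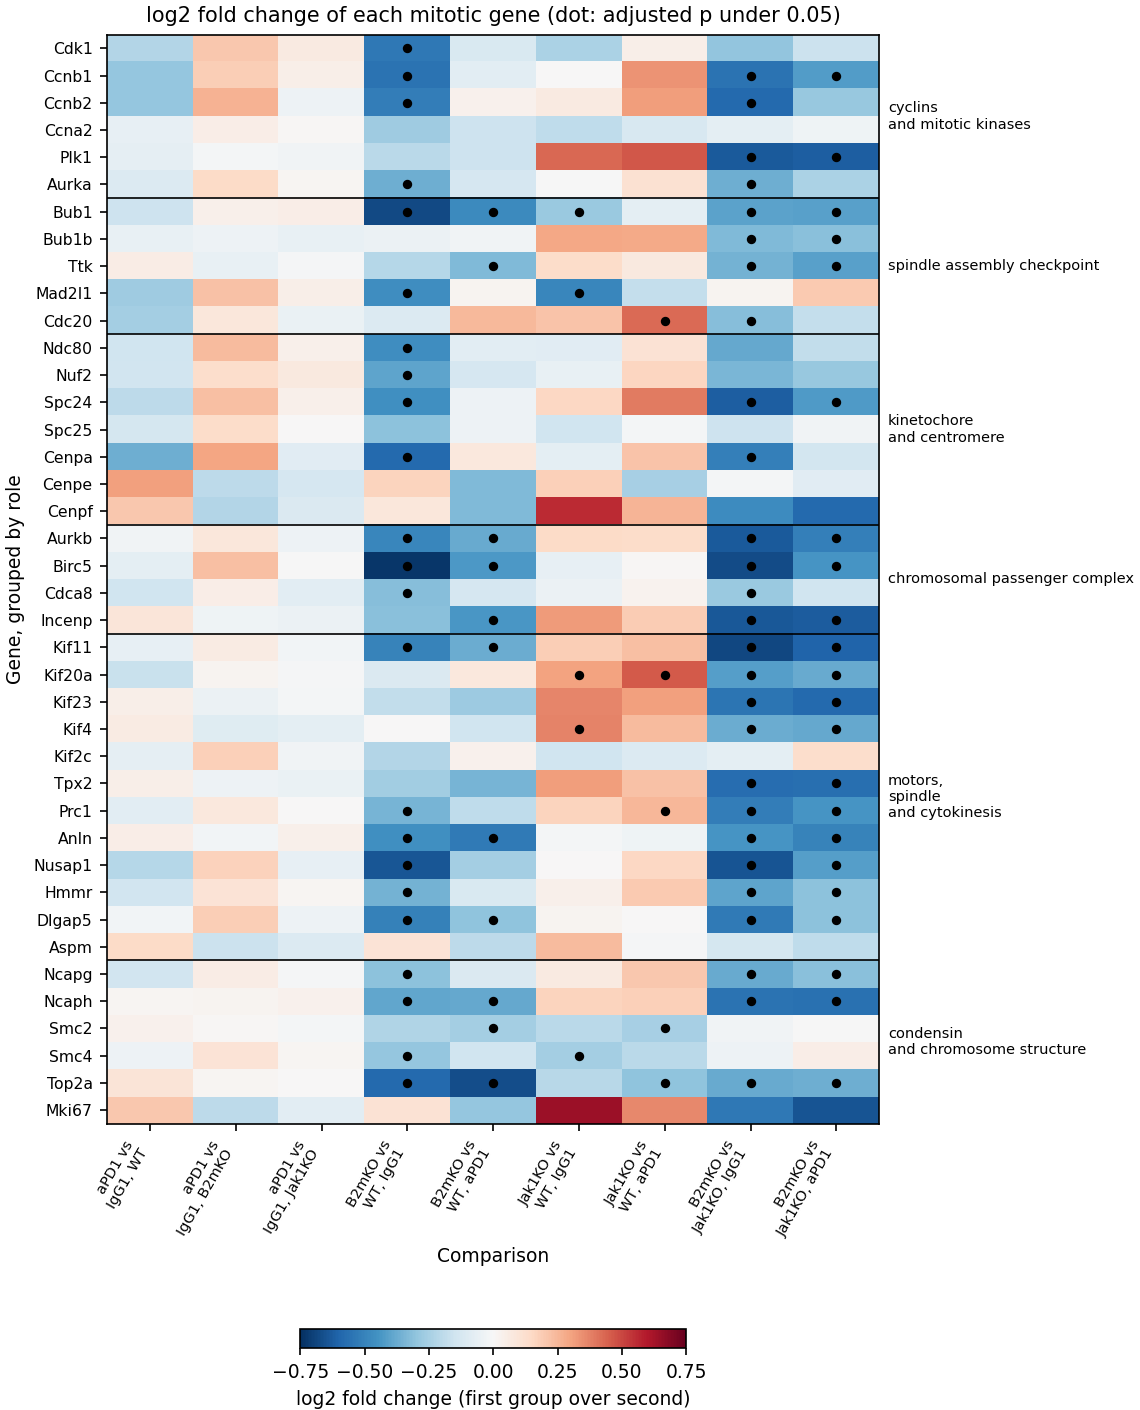
Rows are the 40 mitotic genes grouped by role, columns are the 9 comparisons of groups, the colour is the log2 fold change of the first named group over the second, and a dot marks an adjusted p under 0.05. The columns that set B2mKO against WT or Jak1KO tumours hold 11 to 27 dots, all lower, and the first 3 columns, aPD1 against IgG1, hold none.

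With aPD1, 11 of the 40 genes fell in B2mKO against WT tumours and none rose, where 10.5% of all genes were called lower. The median log2 fold change of the members was -0.15. Groups did not overlap for 5 members, against 12% of all genes. The 11 were Top2a (-0.66 ± 0.10), Anln (-0.53 ± 0.08), Bub1 (-0.48 ± 0.10), Kif11 (-0.37 ± 0.09), Ncaph (-0.38 ± 0.10), Incenp (-0.44 ± 0.12), Aurkb (-0.38 ± 0.11), Dlgap5 (-0.30 ± 0.10), Birc5 (-0.43 ± 0.15), Smc2 (-0.25 ± 0.09) and Ttk (-0.33 ± 0.12). None of the 6 cyclins and mitotic kinases and none of the 7 kinetochore genes passed. Their smallest adjusted p were 0.345 and 0.421. Leaving out WT aPD1 replicate 3, 4 or 5 or B2mKO aPD1 replicate 4 gave 7 calls each, and a fit of the compared groups alone gave 4. Without both libraries that stood apart, Ttk (-0.26) and Smc2 (-0.20) no longer passed, and Cdk1 (-0.33) and Nusap1 (-0.35) did.

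Top2a again stood clear, with 1007, 901, 1106, 1040 and 1029 CPM in WT and 684, 568, 759.9, 509 and 684 CPM in B2mKO tumours with aPD1 (adjusted p = 1.14e-05). Anln had 296, 270.3, 285, 289 and 274 CPM in WT and 229, 184, 192, 174 and 202 CPM in B2mKO (adjusted p = 1.64e-05). Bub1 had 158, 135, 186, 182 and 159 CPM and 118, 129, 120.4, 98.04 and 123 CPM (adjusted p = 0.000643). In these 3 genes every B2mKO library was below every WT library with the same antibody. Birc5 had 103, 111, 138, 109 and 104 CPM in WT and 75.99, 124, 87.1, 59.7 and 72.5 CPM in B2mKO, where replicate 2, which stood apart, reached into the WT range, and its adjusted p of 0.0449 was just under the threshold. The calls of Birc5, Dlgap5 and Smc2 were each lost in 9 to 13 of 18 alternative analyses.

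The comparisons under IgG1 and under aPD1 use different libraries. They shared 8 genes that fell, Anln, Aurkb, Birc5, Bub1, Dlgap5, Kif11, Ncaph and Top2a, which are 34.8% of the 23 and 72.7% of the 11. Whether a gene's difference itself depended on the antibody was tested with the interaction given further on, which no member passed.

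The sequence at the starts of the mitotic genes is shown as background. Late cell cycle genes are known for a CHR element (TTTGAA, with TTCGAA as a variant), bound by MuvB complexes, and for CCAAT boxes, bound by NF-Y. RefSeq windows of GRCm38.p6, from 250 bases before to 50 after each start, were matched by symbol for 32 of the 40 genes, 33 windows in all because Prc1 has 2. TTTGAA occurred on either strand in 75.8% of the members' windows and in 17.9% of all 32851 windows, and TTCGAA in 9.1% and 1.6%. CCAAT occurred on either strand in 75.8% of the members' windows against 37.4% of all windows. From 100 bases before to 50 after the start, TTTGAA or TTCGAA together with CCAAT was found in 57.6% of the members' windows and in 2.1% of all windows. A match shows the letters only, and no binding was measured here. The shares cover all members with a window, whether or not they fell in B2mKO tumours. Whether a match goes with a fall was not tested.

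The stretches below run 5′ to 3′ on the gene's strand, from 120 bases before to 30 after the start, with TTTGAA, its variant TTCGAA and CCAAT of either strand in capitals. Top2a, Anln, Bub1, Kif11 and Ncaph are shown because they fell in B2mKO against WT tumours with both antibodies, and Ccnb2, Cdc20 and Cdk1 because they did not.
Top2a (chr11:99024160-99024309, minus strand): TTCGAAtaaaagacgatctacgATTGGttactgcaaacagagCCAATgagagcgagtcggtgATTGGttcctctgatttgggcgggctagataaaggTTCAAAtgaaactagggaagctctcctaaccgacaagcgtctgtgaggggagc
Anln (chr9:22389177-22389326, minus strand): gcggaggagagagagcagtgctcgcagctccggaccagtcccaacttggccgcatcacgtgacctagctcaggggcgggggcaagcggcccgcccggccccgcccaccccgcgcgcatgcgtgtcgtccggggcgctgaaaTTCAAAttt
Bub1 (chr2:127831830-127831979, minus strand): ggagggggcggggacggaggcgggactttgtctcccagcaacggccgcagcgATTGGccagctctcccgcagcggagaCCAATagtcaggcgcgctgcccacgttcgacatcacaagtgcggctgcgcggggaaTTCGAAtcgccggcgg
Kif11 (chr19:37376262-37376411, plus strand): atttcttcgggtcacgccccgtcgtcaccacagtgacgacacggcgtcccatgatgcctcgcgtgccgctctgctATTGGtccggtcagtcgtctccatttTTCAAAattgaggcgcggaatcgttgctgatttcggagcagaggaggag
Ncaph (chr2:127133925-127134074, minus strand): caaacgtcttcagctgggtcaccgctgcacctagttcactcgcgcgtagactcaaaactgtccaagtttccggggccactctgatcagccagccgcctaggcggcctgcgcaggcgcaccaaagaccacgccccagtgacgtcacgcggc
Ccnb2 (chr9:70421525-70421674, minus strand): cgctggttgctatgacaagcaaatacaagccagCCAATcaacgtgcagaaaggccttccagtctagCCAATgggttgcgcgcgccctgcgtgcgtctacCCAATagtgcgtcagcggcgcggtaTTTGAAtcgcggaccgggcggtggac
Cdc20 (chr4:118437314-118437463, minus strand): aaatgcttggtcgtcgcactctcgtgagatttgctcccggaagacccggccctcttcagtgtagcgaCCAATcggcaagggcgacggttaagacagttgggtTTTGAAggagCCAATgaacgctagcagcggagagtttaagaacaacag
Cdk1 (chr10:69352883-69353032, minus strand): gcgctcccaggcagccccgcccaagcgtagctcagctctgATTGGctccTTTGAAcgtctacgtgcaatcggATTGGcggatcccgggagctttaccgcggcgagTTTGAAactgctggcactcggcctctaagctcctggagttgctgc

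The 5 printed genes, of the 8 that fell with both antibodies, did not share 1 layout of these letters. Of the others, Birc5 had none of these letters in its window, and Aurkb and Dlgap5 had no window. In the printed stretches, Top2a has 1 TTTGAA on the opposite strand, 1 TTCGAA and 3 CCAAT, Bub1 has 1 TTCGAA and 2 CCAAT, and Kif11 has 1 TTTGAA and 1 CCAAT, both on the opposite strand. Anln has 1 TTTGAA on the opposite strand and no CCAAT, and Ncaph has none of these letters. Ccnb2, with 1 TTTGAA and 3 CCAAT, and Cdk1, with 2 TTTGAA and 2 CCAAT, fell against WT with IgG1 and did not pass with aPD1. Cdc20, with 1 TTTGAA and 2 CCAAT, passed with neither antibody against WT and rose in Jak1KO against WT tumours with aPD1.

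Many mitotic genes were also lower in B2mKO than in Jak1KO tumours, in comparisons that use the same B2mKO libraries as those with WT. With IgG1, 27 of 40 fell and none rose (14% of all genes were called lower), with a median log2 fold change of -0.40. With aPD1, 22 of 40 fell and none rose (13.6% of all genes were called lower), with a median of -0.34. All 22 were among the 27. The groups did not overlap for 20 members with IgG1 and 18 with aPD1, against 29.1% and 21.2% of all genes. Leaving out B2mKO aPD1 replicate 4 gave 14 calls with aPD1. Without both libraries that stood apart, 32 and 28 passed, all lower. Neither of the libraries is in the comparison with IgG1, where they enter only through steps shared by all groups. With IgG1, Cdk1 (-0.27), Ndc80 (-0.35), Nuf2 (-0.32), Cenpf (-0.45) and Mki67 (-0.51) were gained and none was lost. With aPD1, Cdk1 (-0.36), Ccnb2 (-0.41), Aurka (-0.30), Ndc80 (-0.31), Nuf2 (-0.37), Cenpa (-0.41) and Cenpf (-0.33) were gained, and Kif4 was lost (-0.26, adjusted p = 0.0516).

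Kif11 had 129, 132, 169.7, 131 and 150.2 CPM in B2mKO and 255, 218, 220.5, 221 and 229.9 CPM in Jak1KO tumours with IgG1, and 158, 139, 164, 119.9 and 162 against 231, 227, 219.9, 229 and 221 CPM with aPD1. The groups were apart with either antibody, with log2 fold changes of -0.68 ± 0.09 (adjusted p = 1.68e-06) and -0.60 ± 0.09 (adjusted p = 1.26e-05). Aurkb had 99.5, 95.6, 92.7, 103 and 104 CPM in Jak1KO tumours with IgG1 and 102, 92.8, 94.9, 93.8 and 99.5 CPM with aPD1, all above its B2mKO values, with changes of -0.63 ± 0.11 (adjusted p = 3.92e-05) and -0.51 ± 0.11 (adjusted p = 0.000527). The complex's scaffold Incenp differed by -0.63 ± 0.12 (adjusted p = 0.000165) and -0.63 ± 0.12 (adjusted p = 0.000206), so that 4 of 4 genes of the chromosomal passenger complex fell with IgG1 and 3 of 4 with aPD1. Of the 12 motor, spindle and cytokinesis genes, 10 fell with each antibody. They include the central spindle motors Kif20a (-0.41 ± 0.11 and -0.38 ± 0.11), Kif23 (-0.55 ± 0.14 and -0.58 ± 0.14) and Kif4 (-0.37 ± 0.13 and -0.39 ± 0.13), which had not passed against WT. With IgG1, mean levels in B2mKO, WT and Jak1KO were 89.4, 96.5 and 119 CPM for Kif20a, 72.8, 82.6 and 106.5 for Kif23, and 63.5, 63.3 and 82.1 for Kif4. With aPD1 they were 90.8, 85.9 and 118.1 CPM, 70.5, 85.3 and 105.5, and 59.6, 66.1 and 77.9. Tpx2, the activator of Aurora A on the spindle, differed by -0.57 ± 0.13 (adjusted p = 0.00108) and -0.56 ± 0.13 (adjusted p = 0.00137), and Prc1 by -0.52 ± 0.08 (adjusted p = 2.17e-05) and -0.44 ± 0.08 (adjusted p = 0.000172).

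Among the kinases, Plk1 had 37.7, 40.6, 65.6, 42.4 and 62.9 CPM in B2mKO and 85.8, 71.9, 64.8, 69.98 and 93.9 CPM in Jak1KO tumours with IgG1. The highest B2mKO library just passed the lowest Jak1KO library, and the log2 fold change was -0.63 ± 0.18 (adjusted p = 0.00835). With aPD1 the values were 56.2, 37.7, 54.6, 36.9 and 61.2 and 75.5, 70.9, 78.6, 78.5 and 75.1 CPM, with no overlap and a change of -0.62 ± 0.18 (adjusted p = 0.0101). Ccnb2 had 44.3, 44.1, 62.2, 51.3 and 61.95 CPM in B2mKO and 87.4, 71.2, 72.7, 81.2 and 82.6 CPM in Jak1KO tumours with IgG1, again without overlap (-0.58 ± 0.15, adjusted p = 0.00295). With aPD1 it had 62.9, 89.2, 59.6, 49.5 and 55.01 and 82.97, 67.04, 73.7, 80.2 and 80.2 CPM, and these groups overlapped through B2mKO replicate 2 (-0.28 ± 0.14, adjusted p = 0.149). Spc24, part of the NDC80 complex (ENSMUSG00000074476, chromosome 9, 21755442 to 21760303), had 14.3, 16.4, 22.2, 15.7 and 24.5 CPM in B2mKO and 29.8, 24.3, 28.9, 29.4 and 30.5 CPM in Jak1KO tumours with IgG1, with a slight overlap and a change of -0.62 ± 0.15 (adjusted p = 0.00228). For Mki67 the difference from Jak1KO did not pass with IgG1 (-0.54 ± 0.35, adjusted p = 0.272) or with aPD1 (-0.65 ± 0.35, adjusted p = 0.169). With IgG1 its groups did not overlap, at 308 to 436 CPM in B2mKO and 516 to 590 in Jak1KO. Nor did those of Cenpf, at 124 to 155 and 179 to 206 CPM. Neither library that stood apart is in the IgG1 comparison, but all groups share 1 estimate of the spread. Without both of them the Mki67 difference was -0.51 ± 0.14 (adjusted p = 0.00423) with IgG1 and -0.35 ± 0.15 (adjusted p = 0.0585) with aPD1.

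**Figure D4:**
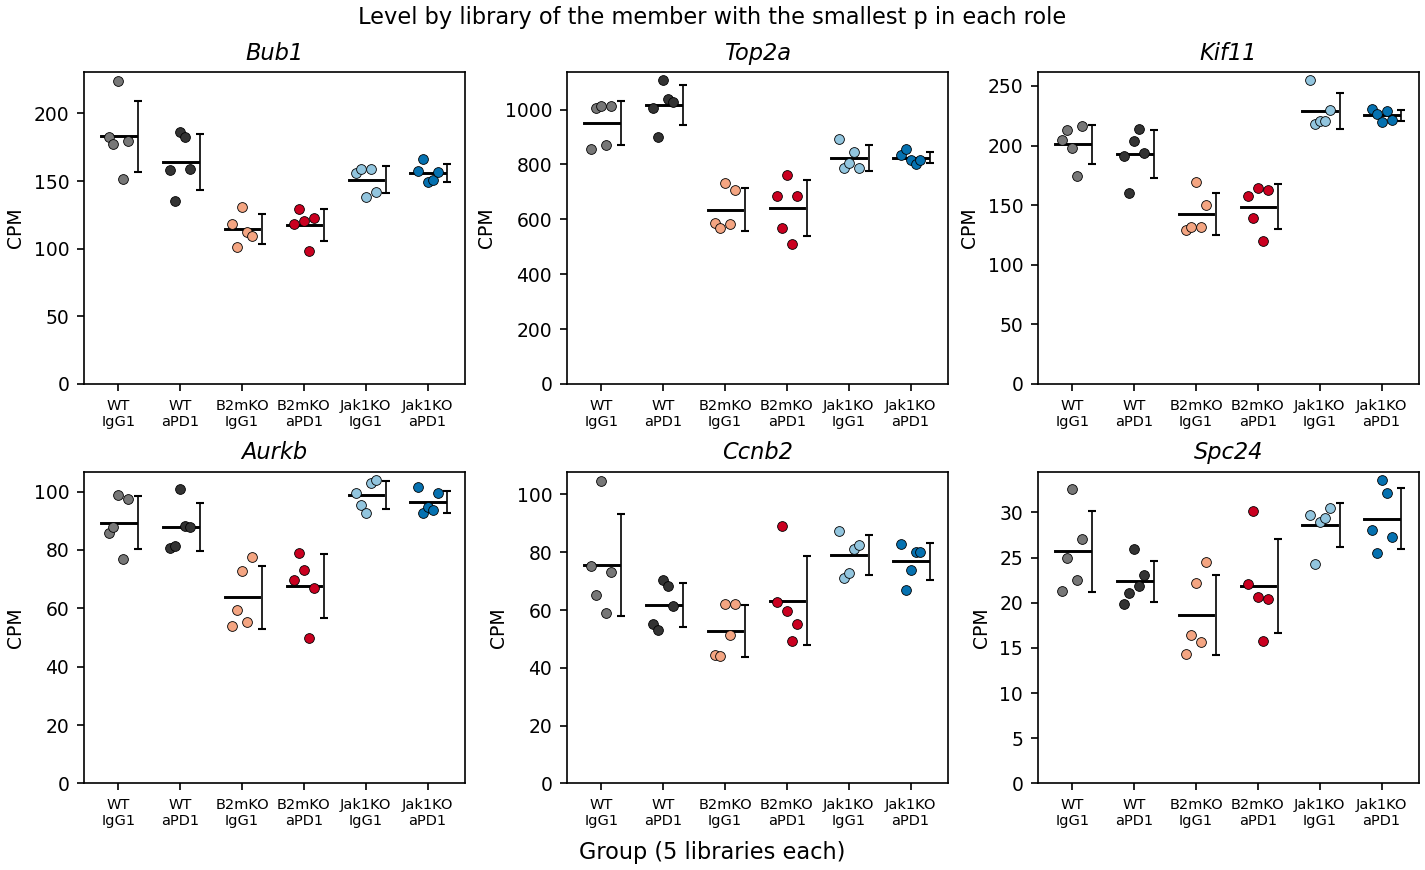
Points are libraries and the y axis is the level in CPM, with the group mean as a bar and ± 1 SD beside it, for the gene with the smallest p in each of the 6 roles. Bub1, Top2a, Kif11 and Aurkb have their lowest means in the B2mKO groups with either antibody, and the high Ccnb2 and Spc24 points in WT IgG1 and B2mKO aPD1 are the libraries that stood apart.

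Fibroblast markers moved with the B2mKO genotype, and other lists did so in some of the comparisons. Among all 15505 genes tested, 1457 and 1529 were called higher in B2mKO against WT tumours with IgG1 and aPD1. Against Jak1KO tumours 2248 and 2348 were. Of 12 fibroblast markers, 10 rose in B2mKO against WT tumours when mice had IgG1 and 9 when they had aPD1, and 7 of 12 rose against Jak1KO tumours with either antibody. In Jak1KO against WT tumours, 1 rose and 1 fell with IgG1, and 5 rose with aPD1. None was lower in the B2mKO comparisons, and none of the 12 was at 0 in any library. Their summed level was 14360 to 32540 CPM in B2mKO IgG1 and 10740 to 24170 in B2mKO aPD1, against 4994 to 13530 over both WT groups and 7835 to 10460 over both Jak1KO groups. The collagen Col3a1 made up most of this sum, with a mean of 9925 CPM over all libraries. Within B2mKO IgG1, replicates 3 and 5 had the lowest fibroblast sums (15540 and 14360 CPM) and the highest mitotic sums (5341 and 5163 CPM), and replicate 2 had the highest fibroblast sum (32540 CPM) and the lowest mitotic sum (4061 CPM). Within B2mKO aPD1, replicate 4 had the highest fibroblast sum (24170 CPM) and the lowest mitotic sum (3834 CPM). B2mKO aPD1 replicate 2 had a fibroblast sum within the WT range (10740 CPM) and a mitotic sum below all WT libraries (4441 CPM). It is one of the libraries that stood apart. Replicate 1 of that group was high in both sums (20430 and 5047 CPM). In WT IgG1, replicate 4 had the highest fibroblast and the lowest mitotic sum (13530 and 5402 CPM). The highest of both sums were in the same library in WT aPD1 (replicate 4, 9987 and 6232 CPM) and in Jak1KO aPD1 (replicate 1, 10460 and 6092 CPM). In Jak1KO IgG1, replicate 2 had the highest fibroblast sum (10280 CPM) and a mitotic sum of 5741 CPM, which was not the lowest. Endothelial markers were higher in B2mKO tumours for 7 of 9 against WT and 6 of 9 against Jak1KO with aPD1, and for 0 and 1 of 9 with IgG1. Cytotoxic lymphocyte markers were higher for 5 of 10 against WT with IgG1, with sums of 69.9 to 264.9 CPM in B2mKO against 20.0 to 49.7 CPM in WT. With aPD1, 1 was higher and 1 lower against WT, with sums of 40.7 to 227.2 CPM in B2mKO against 37.1 to 147.9 CPM in WT. Against Jak1KO, 3 of 10 were higher with IgG1 and 5 with aPD1. Of 6 mitochondrially encoded genes tested, a sign of RNA quality, mt-Nd2 and mt-Co1 rose in B2mKO against WT tumours with IgG1 (median of the 6 log2 fold changes 0.57). Their summed level was 18210 to 21430 CPM in B2mKO IgG1 against 8593 to 18210 CPM in WT IgG1. With aPD1 none of the 6 passed against WT (median 0.11), and against Jak1KO 1 rose with IgG1 and none passed with aPD1. The part of these cells, of tumour cells that express the same genes, or of RNA quality in the lower mitotic levels was not tested.

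**Figure D5:**
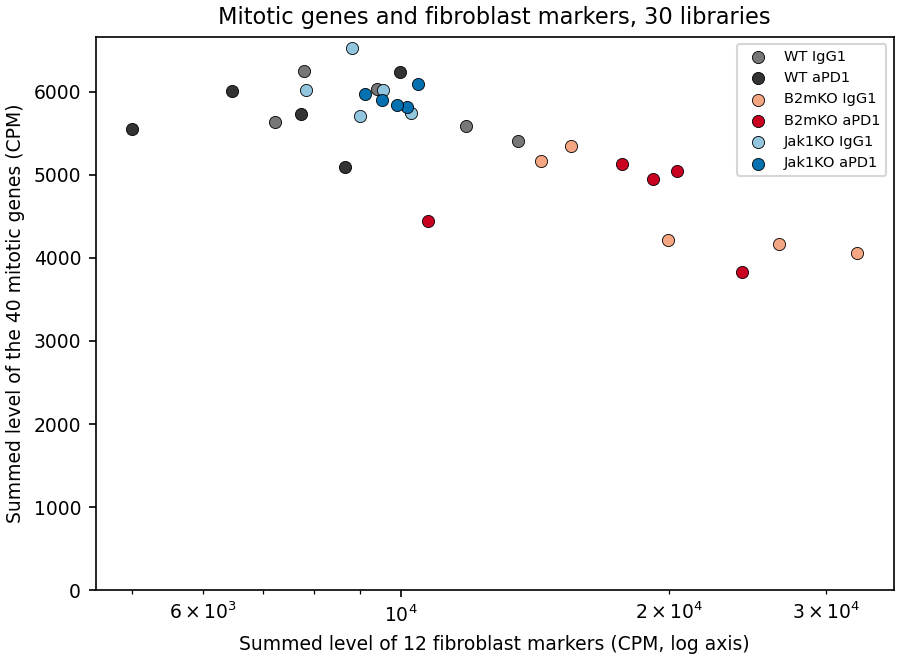
Each point is 1 of 30 libraries, coloured by group; the x axis is the summed level of 12 fibroblast markers in CPM on a log axis and the y axis the summed level of the 40 mitotic genes in CPM. B2mKO libraries lie to the right and lower (fibroblast sums of 10740 to 32540 CPM), and the 20 WT and Jak1KO libraries lie between 4994 and 13530 CPM on the x axis.

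Few mitotic genes passed the test in Jak1KO against WT tumours. With IgG1, 2 of 40 rose and 3 fell, where 7.23% of all genes were called higher and 11% lower, and the median log2 fold change was 0.05. Kif4, a chromosome-arm motor, had 65.9, 67.2, 46.7, 63.4 and 73.3 CPM in WT and 92.6, 79.2, 78.97, 76.1 and 83.6 CPM in Jak1KO tumours with IgG1, without overlap (0.37 ± 0.13, adjusted p = 0.0391). Kif20a, a motor needed for cytokinesis, had 89.6, 97.8, 97.5, 90.1 and 108 and 138, 115, 104, 116 and 121 CPM, with overlap (0.30 ± 0.11, adjusted p = 0.0436). Mad2l1 had 86.5, 89.6, 153, 82.02 and 92.7 and 74.7, 65.4, 69.5, 75.5 and 74.2 CPM, all Jak1KO values being lower (-0.49 ± 0.16, adjusted p = 0.0372). Without WT IgG1 replicate 3, whose Mad2l1 value was the highest of all, its adjusted p was 0.201. Smc4 (-0.25 ± 0.08, adjusted p = 0.0249) and Bub1 (-0.28 ± 0.10, adjusted p = 0.0423) also fell. Without both libraries that stood apart, Kif4 (0.26), Kif20a (0.29) and Bub1 (-0.21) no longer passed, with adjusted p of 0.0555 to 0.0701, and Smc2 (-0.25) did. In that fit Mad2l1 (-0.31, adjusted p = 0.0442) and Smc4 (-0.23, adjusted p = 0.0183) still passed.

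The number of calls depended on single libraries. Leaving out any 1 of WT IgG1 replicates 1, 3 and 4 and Jak1KO IgG1 replicates 1 to 5 left 0 to 3 of the 5 calls, and a fit of the compared groups alone left 0 (DESeq2 gave 5). Groups did not overlap for 5 members, 4 of them higher, against 15% of all genes.

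With aPD1, 3 of 40 genes rose and 2 fell in Jak1KO against WT tumours, where 8.4% of all genes were called higher and 12.4% lower, with a median log2 fold change of 0.16. Kif20a had 79.8, 78.7, 88.5, 98.5 and 83.9 CPM in WT and 122, 116, 118, 119.5 and 115 CPM in Jak1KO tumours with aPD1 (0.46 ± 0.11, adjusted p = 0.00202). Cdc20 had 80.2, 76.6, 99.97, 96.9 and 83.0 and 113, 115, 119, 120.2 and 119 CPM (0.42 ± 0.11, adjusted p = 0.00802). Prc1 had 95.8, 90.5, 106, 109 and 98.3 and 128, 117, 118, 113 and 118 CPM (0.25 ± 0.08, adjusted p = 0.0312). In all 3 genes each Jak1KO library was above each WT library. Top2a had 833, 857, 816, 803 and 817 CPM in Jak1KO tumours, all below its WT values (-0.30 ± 0.10, adjusted p = 0.0239), and Smc2, a condensin core subunit, was lower in the same way (-0.25 ± 0.09, adjusted p = 0.0479). The calls of Top2a, Prc1 and Smc2 were lost in 4, 7 and 12 of 18 alternative analyses.

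Groups did not overlap for 12 members with aPD1, 10 of them higher in Jak1KO, against 20.7% of all genes. Leaving out 1 of WT aPD1 replicates 2 and 5 or Jak1KO aPD1 replicates 1, 3, 4 and 5 gave 2 or 3 calls. A fit of these 2 groups alone gave 18 calls, 15 higher and 3 lower, and the fit without both libraries that stood apart gave 12, 9 higher and 3 lower. Each of these fits kept all 5 genes. Neither library that stood apart belongs to these 2 groups. They enter only through steps shared by all groups, such as the estimate of the spread. The shares of all genes given above are those of the fit of all libraries. The 7 gained without those libraries were Ccnb1 (0.32), Ccnb2 (0.30), Plk1 (0.45), Bub1b (0.27), Spc24 (0.37) and Kif23 (0.29), which were higher, and Smc4 (-0.22), which was lower. The SD over libraries of the mean log2 level of the 40 genes was 0.02 in Jak1KO aPD1, 0.09 in Jak1KO IgG1, 0.10 in WT IgG1, 0.12 in WT aPD1, 0.17 in B2mKO aPD1 and 0.21 in B2mKO IgG1.

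The antibody itself moved none of the mitotic genes past the threshold. In WT tumours, edgeR's test called 0 of 40 genes with aPD1 against IgG1, where 4.38% of all genes were called. Only 1 member had an unadjusted p under 0.05, against 18% of all genes. DESeq2 also called 0 members. The median log2 fold change was -0.07. Cdc20 had 104, 110.1, 100.3, 87.2 and 120.2 CPM with IgG1 and 80.2, 76.6, 99.97, 96.9 and 83.0 CPM with aPD1, groups that overlapped, with the smallest p (-0.26 ± 0.11, adjusted p = 0.232). Ccnb2 (-0.29 ± 0.14, adjusted p = 0.288), Cenpa (-0.37 ± 0.18, adjusted p = 0.29) and Ccnb1 (-0.29 ± 0.15, adjusted p = 0.302) followed. Cenpa had 78.5, 77.8, 138, 68.6 and 81.4 CPM with IgG1, where replicate 3 stood apart, and 71.1, 63.7, 74.8, 72.6 and 61.9 CPM with aPD1.

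In B2mKO tumours edgeR and DESeq2 each called 0 of 40 with aPD1, where 0% of all genes were called, and 0 members had an unadjusted p under 0.05 (3.3% of all genes). Dlgap5 (0.18 ± 0.10, adjusted p = 0.801), Ccnb2 (0.26 ± 0.14, adjusted p = 0.801), Kif2c (0.18 ± 0.10, adjusted p = 0.801) and Cenpa (0.29 ± 0.18, adjusted p = 0.801) had the smallest p. Cenpa had 47.8, 52.2, 67.4, 58.4 and 70.2 CPM with IgG1 and 65.6, 127, 64.5, 49.6 and 56.1 CPM with aPD1, where the highest value is the library that stood apart, and its log2 fold change without that library was -0.0009. In Jak1KO tumours both tools called 0 of 40, where 0% of all genes were called, and 0 members had an unadjusted p under 0.05 (1.11% of all genes). There the log2 fold changes of all 40 genes lay between -0.12 and 0.07, with Cdca8 (-0.08 ± 0.09, adjusted p = 1), Kif4 (-0.08 ± 0.13, adjusted p = 1), Nuf2 (0.07 ± 0.14, adjusted p = 1) and Bub1 (0.05 ± 0.10, adjusted p = 1) having the smallest p.

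The difference in antibody effect between genotypes was tested directly. For B2mKO minus WT, edgeR and DESeq2 called 0 of 40 members, where 0.0967% of all genes were called, and 5 members had an unadjusted p under 0.05 (16.4% of all genes). The smallest p belonged to Ccnb2 (0.55 ± 0.20, adjusted p = 0.245), Cenpa (0.66 ± 0.26, adjusted p = 0.261), Ccnb1 (0.48 ± 0.21, adjusted p = 0.284) and Cdc20 (0.34 ± 0.16, adjusted p = 0.3). For Jak1KO minus WT, both tools called 0 of 40, where 0% of all genes were called, and 0 members had an unadjusted p under 0.05 (8.25% of all genes). Ccnb1 (0.34 ± 0.21, adjusted p = 0.72), Bub1 (0.20 ± 0.14, adjusted p = 0.732), Mad2l1 (0.31 ± 0.23, adjusted p = 0.751) and Cdc20 (0.21 ± 0.16, adjusted p = 0.759) had the smallest p.

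Other genes of division were counted in lists drawn up by function, also with earlier results of these data known. The counts are to be read beside the shares of all genes called lower. These shares were 11.7% and 10.5% against WT with IgG1 and aPD1 and 14% and 13.6% against Jak1KO. Of 72 further mitotic genes, 35 fell and none rose in B2mKO tumours against WT with IgG1 (median log2 fold change -0.30), and 19 fell and 3 rose with aPD1 (median -0.20). Against Jak1KO tumours, 35 fell and 3 rose with IgG1, and 30 fell and 2 rose with aPD1. The others of the 72 did not pass. Examples are Racgap1, a partner of Kif23 in the central spindle (-0.62 ± 0.10, adjusted p = 3.60e-05 against WT with IgG1), Knstrn, a kinetochore and spindle protein (-0.62 ± 0.11, adjusted p = 0.000215), and Cenpm, a centromere protein (-1.06 ± 0.12, adjusted p = 1.42e-07 against Jak1KO with IgG1). With aPD1, the condensin II subunit Ncapg2 changed by -0.53 ± 0.09 (adjusted p = 6.36e-05) against WT.

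DNA replication genes act in the S phase before mitosis. Of 28, 22 fell against WT with IgG1 and 10 with aPD1, with medians of -0.57 and -0.32, and 21 and 15 fell against Jak1KO. None rose in these 4 comparisons. Among them, Gins3, part of the replicative helicase (-0.61 ± 0.10, adjusted p = 8.59e-05), Mcm5, a helicase subunit (-0.71 ± 0.14, adjusted p = 0.000635), and Cdt1, which loads it (-0.70 ± 0.15, adjusted p = 0.00138), fell against WT with IgG1, and Mcm3 (-0.76 ± 0.12, adjusted p = 1.79e-05) and Mcm4 (-0.74 ± 0.12, adjusted p = 3.36e-05) against Jak1KO with aPD1.

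The regulators were mixed. Of 18 genes of the anaphase-promoting complex, 5 fell and none rose against WT with IgG1, among them its ubiquitin-conjugating enzymes Ube2s (-0.59 ± 0.10, adjusted p = 6.67e-05) and Ube2c (-0.33 ± 0.10, adjusted p = 0.0159). With aPD1, 2 fell and 2 rose against WT (median -0.04), and against Jak1KO 7 fell and 1 rose with IgG1 and 7 fell and 2 rose with aPD1. Of 12 genes of the MuvB, DREAM and FoxM1 group, 4 fell and none rose with each antibody against WT, and against Jak1KO 3 fell with each antibody, while 2 rose with IgG1 and 1 with aPD1. Those that fell against WT include Tfdp1, the partner of E2F factors (-0.57 ± 0.09, adjusted p = 7.93e-05 with IgG1), and E2f4 (-0.34 ± 0.09, adjusted p = 0.00603). Mybl2, the B-Myb activator of late cell cycle genes, fell with aPD1 (-0.48 ± 0.16, adjusted p = 0.0319). Of 8 genes that control CDK1, 3 fell with each antibody against WT, the phosphatase Cdc25b in both (-0.26 ± 0.08, adjusted p = 0.0279 and -0.51 ± 0.08, adjusted p = 7.67e-05), and Wee1, an inhibitor of CDK1, rose with IgG1 (0.35 ± 0.12, adjusted p = 0.043). Against Jak1KO, 4 of these 8 fell and 1 rose with IgG1, and 3 fell with aPD1. Of 14 genes of G1/S cyclins, E2F and RB, 3 fell with IgG1 and 4 with aPD1 against WT and none rose. Against Jak1KO, 2 rose and none fell with IgG1, and 1 fell with aPD1. Of 14 CDK inhibitors and p53 targets, 2 to 5 rose and 1 fell in each B2mKO comparison. Of all 15505 genes tested, 1457 and 1529 were called higher against WT with IgG1 and aPD1, and 2248 and 2348 against Jak1KO. Cdkn2b rose in B2mKO tumours in each comparison (0.49 ± 0.15 and 1.10 ± 0.16 against WT, 0.91 ± 0.16 and 0.99 ± 0.16 against Jak1KO), and so did Cdkn2a (0.72 ± 0.14 and 0.62 ± 0.14, 0.94 ± 0.14 and 0.87 ± 0.14). Both genes encode inhibitors of the cyclin D kinases. In Jak1KO tumours Cdkn1a, which encodes p21, fell against WT with IgG1 (-1.02 ± 0.18, adjusted p = 0.000179) and with aPD1 (-1.01 ± 0.18, adjusted p = 0.000162).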

How the data were processed

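The data are RNA-seq of 30 mouse tumour samples, 5 in each of 6 groups, from a TruSeq RNA kit read from both ends, per the labels' protocols. The deposited values are raw read counts per gene, made by the authors with featureCounts 2.0.0 at its default settings on an Ensembl annotation of GRCm38, per the file headers. Strand was not used, so reads of overlapping or antisense genes cannot be told apart, and reads that map to several places were left out, which can lower genes with near-identical copies. Tools named, without a stated role, are STAR 2.5.2a, FastQC 0.11.2, Cufflinks 2.2.1 and edgeR 3.24.3, per the submitters' processing notes. The header of WT aPD1 replicate 2 names an alignment file of another name. All 30 per-sample tables hold the same counts as the series table. Rows with no gene symbol held 0.047% of counts.

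Genes were kept with edgeR's filter (minimum count 10, minimum total 15), which left 15505 of 55471, and libraries were scaled by TMM factors of 0.939 to 1.043. One edgeR 4.0.16 quasi-likelihood model (R 4.3.3, limma 3.58.1) with 6 group means was fitted to all 30 libraries, and p-values were adjusted by Benjamini-Hochberg over all genes in each of 11 comparisons, with a threshold of 0.05. The test is two-sided. The fit was tested on simulated data for B2mKO against WT tumours with IgG1 (15281 genes): 31.6% of 98 genes changed by 0.5 on the log2 scale and 74.5% of 98 changed by 1 were recovered, with 6 false calls. Alternatives were DESeq2 1.42.0, other scalings, no filter, the compared groups alone, a replicate block and each library left out. Promoter windows are RefSeq sequences of GRCm38.p6, matched by symbol.

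Named genes follow a rule: per comparison the members past the threshold, in full for at most 10 with the smallest p, or else the 4 with the smallest p. The smallest-p member of each role is shown over groups, and other lists name at most 4 genes past the threshold in each comparison. The members and lists were chosen with earlier results of these data known.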

Additional observations from a re-analysis of the deposited data

Results flagged for a closer look

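In 21 of 240 sets of 5 libraries (40 genes in 6 groups), 1 library lay so far from the other 4 that its gap, as a share of the group's range, passed the critical value of 0.71. Chance flags about 1 in 20 sets, or 12 here. The library WT IgG1 replicate 3 gave 6 of them. It was high for Mad2l1 (153 CPM), Nuf2 (75.8 CPM), Cenpa (138.3 CPM) and Nusap1 (156.4 CPM), and low for Bub1b (101.2 CPM) and Cenpe (38.1 CPM). B2mKO aPD1 replicate 2 was high for Cdk1 (322.5 CPM), Spc25 (47.9 CPM) and Cenpa (127.3 CPM). These are the libraries that stood apart in the report.

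Jak1KO IgG1 replicate 1 was high for Nuf2 (61.5 CPM), Cenpf (205.9 CPM), Prc1 (128.4 CPM), Aspm (139.9 CPM) and Mki67 (590.3 CPM). WT aPD1 replicate 3 was high for Cdk1 (278.6 CPM) and Birc5 (138.5 CPM). B2mKO aPD1 replicate 4 was low for Ccna2 (118.3 CPM) and Hmmr (57.3 CPM). Single flags were Spc24 in Jak1KO IgG1 replicate 2 (24.3 CPM, low), Prc1 in Jak1KO aPD1 replicate 1 (128.5 CPM, high) and Smc4 in Jak1KO aPD1 replicate 2 (356.2 CPM, high).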

How the results depend on the processing

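The number of mitotic genes past the threshold depended on the processing as follows. Shares of all genes called under each setting are not set beside these counts. For B2mKO against WT tumours with IgG1 (23 genes), a fit of the compared groups alone gave 9, and leaving out 1 library gave 14 to 28. With aPD1 (11 genes), upper-quartile scaling and no filter each gave 7, the compared groups alone gave 4, and leaving out 1 library gave 7 to 11. For B2mKO against Jak1KO tumours with aPD1 (22 genes), leaving out 1 library gave 14 to 23. For Jak1KO against WT tumours with IgG1 (5 genes), library totals gave 2, no filter gave 1, the compared groups alone gave 0, leaving out both libraries that stood apart gave 3, and leaving out 1 library gave 0 to 6. With aPD1 (5 genes), no filter gave 3, the compared groups alone gave 18, leaving out both libraries gave 12, and leaving out 1 library gave 2 to 5. Neither library that stood apart belongs to the groups of Jak1KO against WT tumours with aPD1. They enter that comparison only through steps shared by all groups, such as the estimate of the spread. The cause of the differences between settings was not tested. The split of the Jak1KO against WT calls also moved with scaling: upper-quartile scaling gave 4 higher and 2 lower with IgG1 and 6 higher and 1 lower with aPD1, and library totals gave 2 and 0 with IgG1 and 4 and 0 with aPD1. The log2 fold change of Cenpa with aPD1 in B2mKO tumours was 0.29, lay between -0.0009 (without B2mKO aPD1 replicate 2) and 0.40 (without B2mKO aPD1 replicate 4) when 1 library was left out, and was -0.0061 without both libraries that stood apart. Of 70 named gene results, 54 kept their call under every alternative and 15 lost it under at least 1. A fit with the replicate number as a block gave 23, 11, 28 and 22 genes for the B2mKO comparisons and 4 and 6 for Jak1KO against WT with IgG1 and aPD1, and 0 for the others. Replicate numbers share no stated source, and in no pair of groups did every pair of libraries with the same number correlate above 0.1, so the numbers were not taken as pairs. Jak1KO IgG1 and Jak1KO aPD1 came nearest. Their same-number correlations were 0.09 to 0.35 over all genes and 0.09 to 0.48 over the members, 4 of 5 above 0.1 in each. At this depth the smallest count of a mitotic gene in a library was 250.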
